A study of Mus musculus with 19 samples.

Results

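The conjunctiva is the mucous membrane that covers the front of the eye outside the cornea and lines the lids. The effect of calorie restriction (CR) on its RNA was compared with free feeding (ad libitum, AL) in 9 libraries, which were taken by their tissue and diet labels from the 19 libraries of the series. Of these, 4 came from AL mice (AL 1, AL 3, AL 4 and AL 5) and 5 from CR mice (CR 1 to CR 5), numbered as in their titles. The other 10 libraries were corneal and were not used here. All 9 conjunctivas came from mice labelled C57BL/6, which the study's methods give as female C57BL/6J. CR was reached gradually, and where the methods give a schedule the restricted mice were fed once a day shortly before lights off, whereas AL mice always had food. All 9 titles also carry 6M and 50W, which the labels do not explain, and the time of day at which tissue was taken is not given in the sources used here. In 1 of the study's 2 feeding cohorts the CR chow was enriched in vitamins and micronutrients, and the labels do not say which cohort these mice belonged to, so the restriction and the chow cannot be told apart.

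The conjunctival surface is a stratified epithelium with goblet cells, which secrete the gel-forming mucins of the tear film. Beneath it lies a loose stroma of fibroblasts, collagen and elastic fibers, with vessels, nerves, macrophages, dendritic cells and mast cells. A limited food intake is known in many tissues to raise fat burning and glucocorticoid signals, and a single daily meal is known to set the phase of peripheral clocks. The excised tissue was sequenced whole, so a lower value can come from fewer cells of a type or from less RNA per cell, and these cannot be told apart.

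Values are normalized counts, that is, counted reads divided by the authors' size factor for the library. The libraries held 10726357 to 14433080 counted reads, with no difference between the diets past the threshold (exact two-sided permutation test, p = 0.8095, where 0.0079 is the smallest p that 4 against 5 libraries can give). The share of genes without a read was 35.3% ± 1.90 (SD, n = 4) in AL and 37.1% ± 2.29 (SD, n = 5) in CR, with an exact permutation p of 0.246. The tissue label was borne out by its defining genes in every library. Krt4 and Krt13, keratins of mucosal epithelium, ranged from 8790 to 25407 and from 10269 to 40522 normalized counts, and Muc5ac, the gel-forming mucin of goblet cells, from 2328 to 6593. Pax6, which specifies the ocular surface, lay between 3833 and 5799.

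Of the 9 libraries, 2 stood apart. CR 5 held the secretory genes of the meibomian gland, the oil gland of the lid. The wax ester synthase Awat1 was at 1040 normalized counts in CR 5, at 45.8 in CR 1 and at 0 in the other 7 libraries. Elovl4, which elongates very long fatty acids, was at 4552 in CR 5 and at 2.41 to 87.7 elsewhere. Summed over the 20 listed meibomian genes, CR 5 reached 32865 normalized counts, whereas the 4 AL libraries lay between 3028 and 3779 and the other CR libraries between 2729 and 3956. CR 5 also had the lowest scores for endothelium, pericytes, melanocytes and Schwann cells, a score being the mean over a list of each gene's log2 value minus its mean over the 9 libraries. AL 3 had the lowest scores for skeletal muscle (-1.94) and fat (-2.42), together with high counts of Sprr2a3, a small proline-rich protein of stressed epithelium (513, against 4.82 to 8.61 in the other AL libraries). Values are therefore also given without CR 5 or without both libraries for some of the lists and genes. CR 3, the library whose omission changed the number of calls most, also differed in its markers. It had the highest score for skeletal muscle (1.63) and the lowest for mucosal keratins (-0.38), proliferation (-0.67) and tight junctions (-0.26). The part of this in the calls was not tested.

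**Figure D1:**
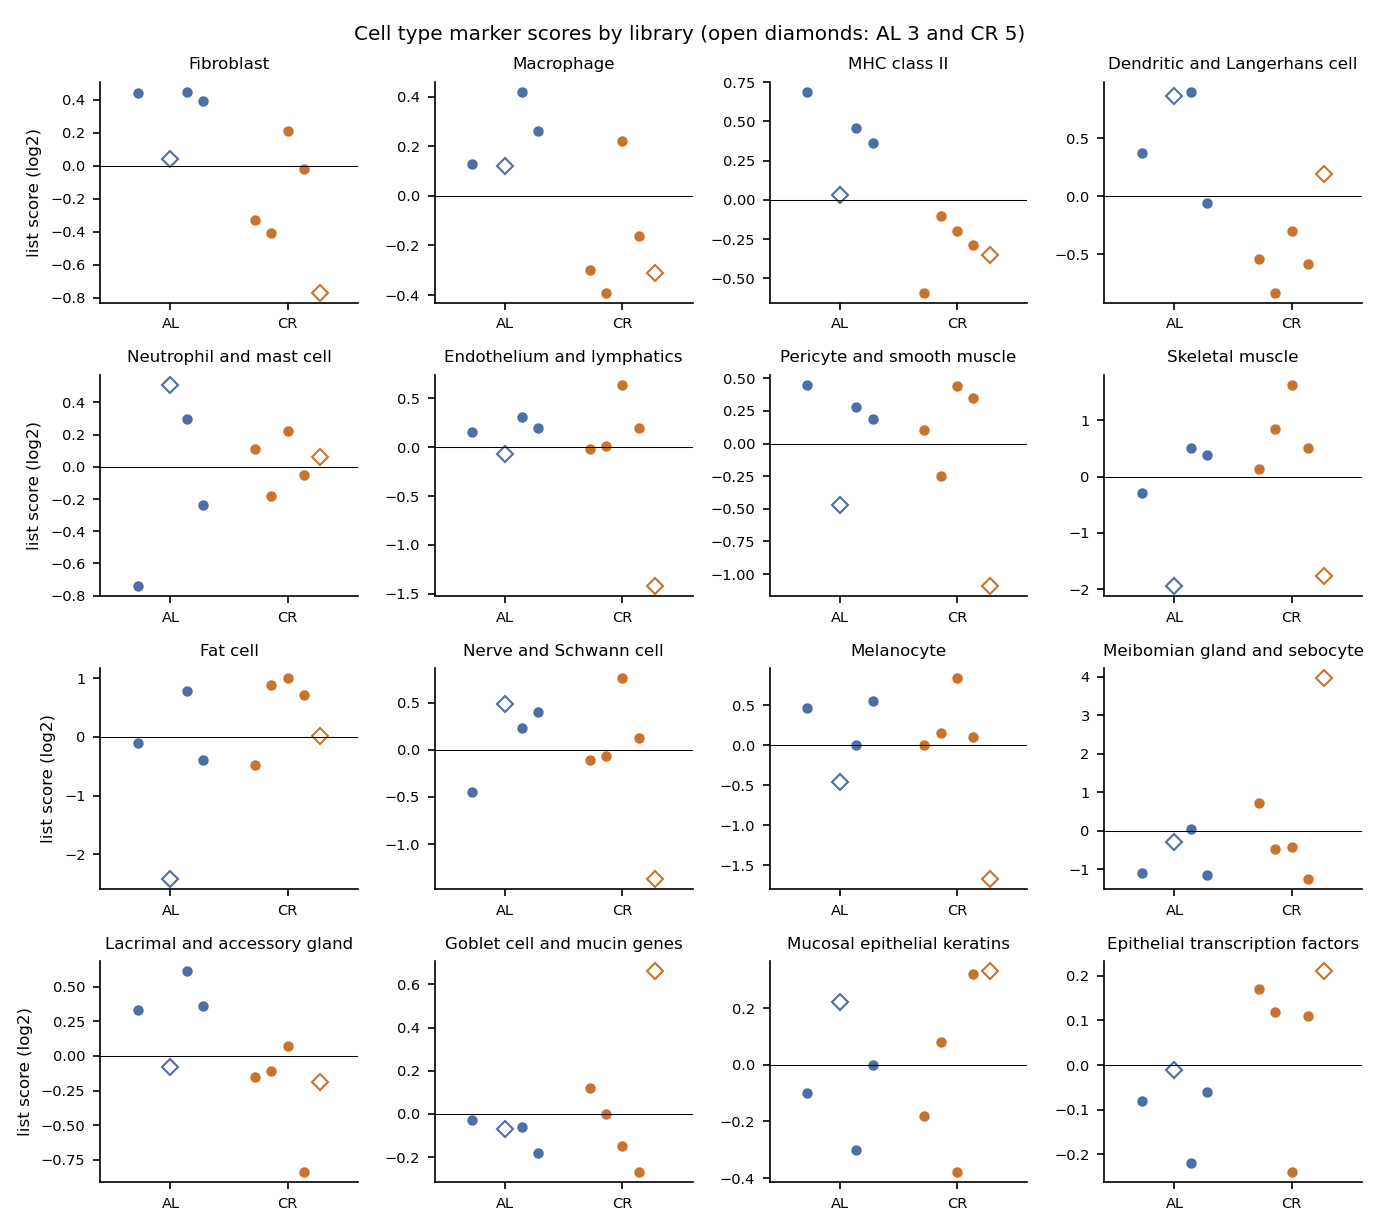
Scores of 16 marker lists in each library (y axis, mean over the list of the log2 value minus the gene's mean over 9 libraries; x axis, diet, with points placed from left to right by label number). Open diamonds are AL 3 and CR 5. CR 5 stands at 3.96 for the meibomian list and at -1.42 for endothelium, and all 4 AL libraries lie above all 5 CR libraries for MHC class II.

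Few conjunctival genes passed the test between the diets, and their number depended on the settings. Of 13928 genes tested with limma, 50 passed an adjusted p under 0.05 together with a fold change over 1.5, which is 0.359% of those tested. Of these, 31 were higher (0.223%) and 19 lower (0.136%) under CR. With libraries scaled to equal totals the split was 22 higher and 24 lower, and with quantile normalization it was 29 higher and 27 lower. At an unadjusted p under 0.05 stood 9.4% of all genes tested. Across all genes tested, 48.0% were higher and 52.0% lower, and the median log2 change was -0.02. For 49 of the 50 the values of the diets occupied separate ranges, against 3.86% of all genes tested, and the exception was Mcpt4. The 50 were picked by small p from these same values, which favors separate ranges, so this is no further support. The absolute log2 changes of the 50 ran from 0.60 to 4.93, and 35 exceeded a doubling or a halving of level. The circadian clock accounted for 10 of the 50 and the collagens for 4, which left 36 other genes, 21 higher and 15 lower.

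**Figure D2:**
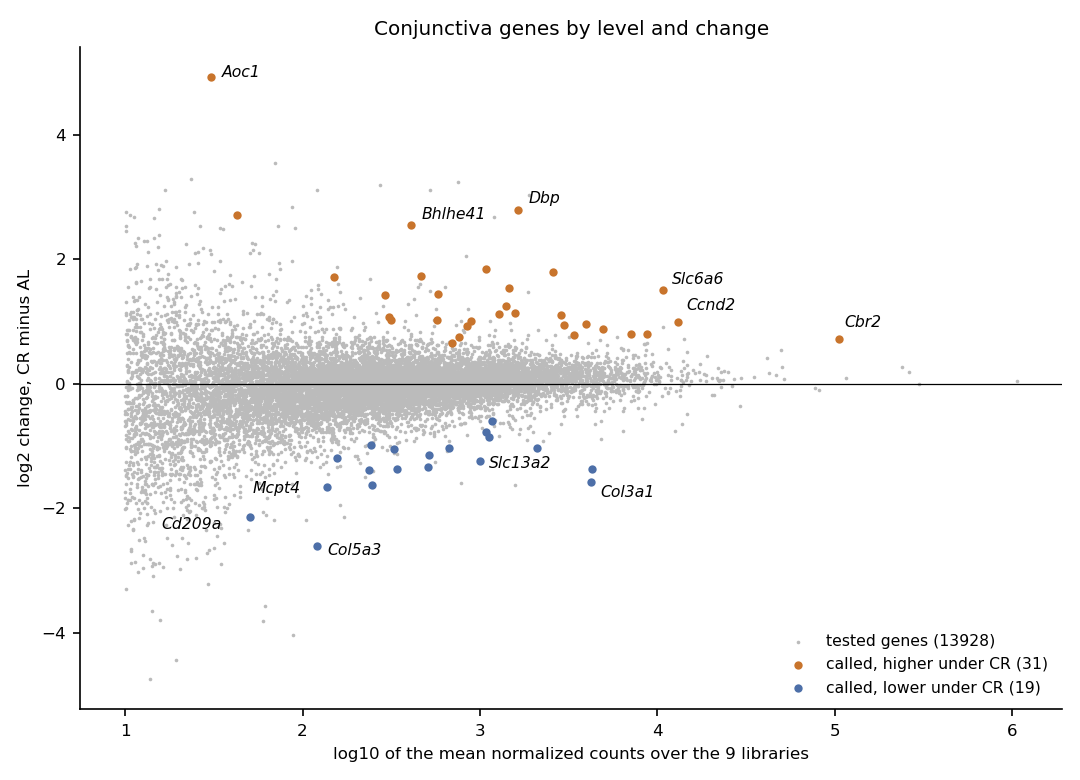
Log2 change, CR minus AL (y axis), of the 13928 tested genes by the log10 of their mean normalized counts over the 9 libraries (x axis). Grey points did not pass the test. Orange points are the 31 genes called higher and blue points the 19 called lower, from Aoc1 at the low end of the levels to Cbr2 at the high end.

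Single libraries mattered for many of these calls. All 50 genes kept their direction when any of the 9 libraries was left out, and 22 remained past both thresholds in all 9 fits. These 9 fits differ only in the library omitted. With the replicate number as a block 10 of the 50 passed, and without trend and robust moderation 2 did. Genes that held in all 9 fits but missed with the block included Fbn1 (adjusted p = 0.0666), Cd74 (0.112) and Ifi47 (0.057). Leaving out AL 1 lost 23 of the 50, AL 3 17, AL 4 22, AL 5 21, CR 1 23, CR 2 26, CR 4 15 and CR 5 1, whereas without CR 3 none was lost. The number of genes called ranged from 26 without CR 2 to 127 without CR 3 and was 76 without CR 5. Without AL 3 and CR 5 together it was 58, of which 38 were among the 50. The 12 lost were Hlf, Eef2k, Cbr2, Kctd14, AW551984, Plat, Cpt1a, Cdc42ep2, Lgalsl, Atp1b1, Gdap10 and Dhrs3, with adjusted p from 0.0516 (Hlf and Cpt1a) to 0.127 (Gdap10). Under total count scaling 39 of the 50 remained. The 11 lost were Nr1d2, Eef2k, Kctd14, Glul, Ciart, Plat, Cpt1a, Atp1b1, Nr1d1, Gdap10 and Mcpt4, with adjusted p from 0.0523 (Plat and Mcpt4) to 0.0995 (Cpt1a). Calls that depended on a single library are named beside each gene below. Statements that no gene of a list passed refer to fits of all 9 libraries. Without CR 3, genes of such lists passed as well, among them C3, C1qa, Aqp5, Klf5, Casp14, Igf1r, Notch1 and Wnt2. Without CR 4, those that passed included Ltf, Tff1, Dkk2 and the macrophage marker Mrc1 (adjusted p = 0.0402).

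**Figure D3:**
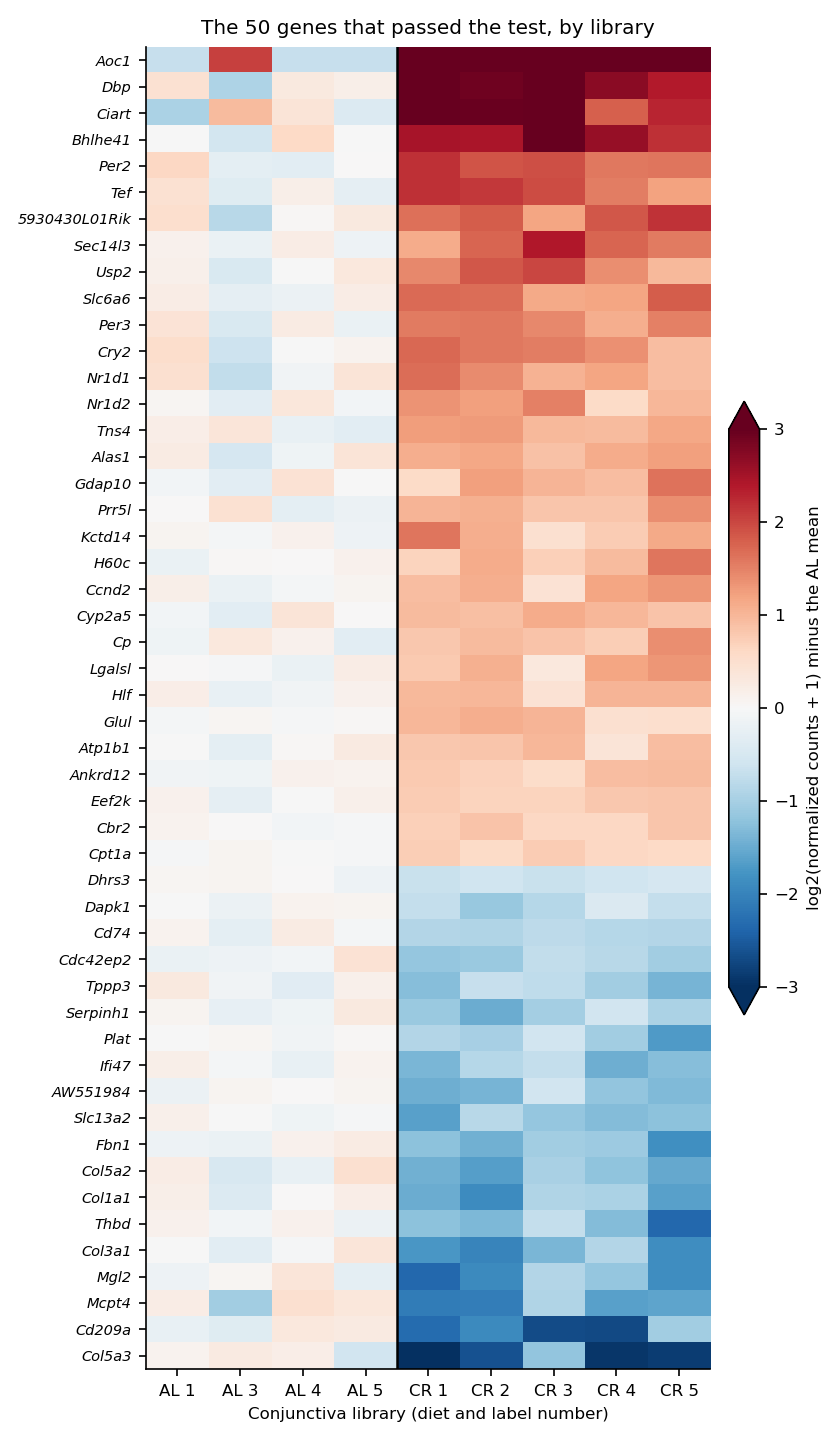
The 50 genes that passed the test (rows, ordered by log2 change) in the 9 libraries (columns). Colour gives the log2(normalized counts + 1) minus the AL mean of the gene, from blue (lower) to red (higher), and is capped at 3. The 5 CR columns are red in the upper 31 rows and blue in the lower 19, and AL 3 departs from the other AL libraries for Aoc1 and Mcpt4.

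Among genes that did not belong to the clock or to the collagens, 2 transporters of small organic solutes had the smallest p. Slc6a6 encodes the transporter that takes up taurine, an osmolyte and antioxidant. Slc6a6 was at 6091, 4339, 4657 and 6161 normalized counts in AL 1, 3, 4 and 5, and at 17058, 16745, 11571, 11987 and 18612 in CR 1 to 5. Every CR library was thus above every AL library, with CR 3 and CR 4 the lowest of the CR libraries. The log2 change was 1.51 ± 0.18 (SE), with an adjusted p of 0.000761 from limma. The call held whichever library was left out, with an adjusted p of at most 0.00738.

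Slc13a2 encodes the sodium-dependent carrier of citrate and succinate and went the other way. It was at 1622, 1448, 1342 and 1426 normalized counts in AL 1, 3, 4 and 5 and at 470, 822, 649, 589 and 621 in CR 1 to 5, so that the CR level was below the lowest AL library throughout. Slc13a2 fell by 1.23 ± 0.16 on the log2 scale (limma adjusted p = 0.00196), and at most 0.0105 with any library left out. In the GRCm38.p6 annotation it overlaps the antisense gene Slc13a2os, and whether counting used strand is not stated. Atp1b1, the beta subunit of the sodium pump, lay at 4053 to 5992 in AL and at 6547 to 10033 in CR. It rose by 0.80 ± 0.16 (adjusted p = 0.0372), but the call held only without CR 3, CR 4 or CR 5. Taurine synthesis was also measured. Cdo1, the first enzyme from cysteine to taurine, had a log2 change of 0.62 with an adjusted p of 0.0937, which became 0.0384 without CR 5. Csad, the next enzyme, had a change of 0.34 (adjusted p = 0.51). Over the 11 tested genes of osmolyte and organic solute handling the median log2 change was 0.04, with 6 higher and 5 lower, and Slc6a6 and Slc13a2 were the 2 that passed.

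Alas1, Cyp2a5, Cbr2, Aoc1 and Cp also rose, and none of them was in a list. Alas1 catalyses the first and limiting step of heme synthesis. Its normalized counts were 2047, 1224, 1594 and 2263 in AL 1, 3, 4 and 5 and 3719, 3906, 3212, 3725 and 4086 in CR 1 to 5. The diets did not overlap, and Alas1 rose by 1.1 ± 0.17 on the log2 scale (limma adjusted p = 0.00639). Cyp2a5, a heme-containing cytochrome P450, was at 2441, 2063, 3355 and 2619 in AL and at 4964, 4796, 5613, 5122 and 4679 in CR, again without overlap. It rose by 0.96 ± 0.15 (adjusted p = 0.00639). Both calls held with any library left out. Reads of Cyp2a5 may be shared with its near-identical neighbour Cyp2a4, so its level is uncertain to that extent.

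Cbr2, a carbonyl reductase that acts on small carbonyl compounds, was very abundant. It was at 83231, 77279, 72820 and 75323 normalized counts in AL 1, 3, 4 and 5 and at 126799, 139061, 118924, 118575 and 137087 in CR 1 to 5. The spread within each diet was small beside the gap between them, and Cbr2 rose by 0.73 ± 0.14 (limma adjusted p = 0.0247). This call held only without CR 3, CR 4 or CR 5, and was lost under quantile normalization (adjusted p = 0.0712), as were those of Glul, Atp1b1, Nr1d1 and Cd209a. Aoc1, the diamine oxidase that degrades histamine and putrescine, was at 0 in AL 1, AL 4 and AL 5 and at 5.61 in AL 3. In CR 1 to 5 it was at 21.4, 43.8, 40.6, 71.7 and 90.9. The size of its log2 change, 4.93 ± 0.84, depends on the pseudocount because AL was near 0, and its adjusted p of 0.0129 became 0.0711 without CR 2, was also lost without CR 4, and was 0.249 with voom on whole reads. Cp, the copper-carrying ferroxidase ceruloplasmin, lay at 1549 to 2395 in AL and at 3231 to 5093 in CR. Cp rose by 0.95 ± 0.17 (adjusted p = 0.0149) and was lost without AL 1, AL 5 or CR 2. Among 37 tested genes of the NRF2 and antioxidant response, none passed in limma or voom. Of these 27 were higher and 10 lower, 6 were higher and 0 lower at an unadjusted p under 0.05, and the median log2 change was 0.18, or 0.09 without CR 3. Gclc and Slc7a11, which supply glutathione, had log2 changes of 0.66 and 0.65 with adjusted p of 0.408 and 0.283.

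**Figure D4:**
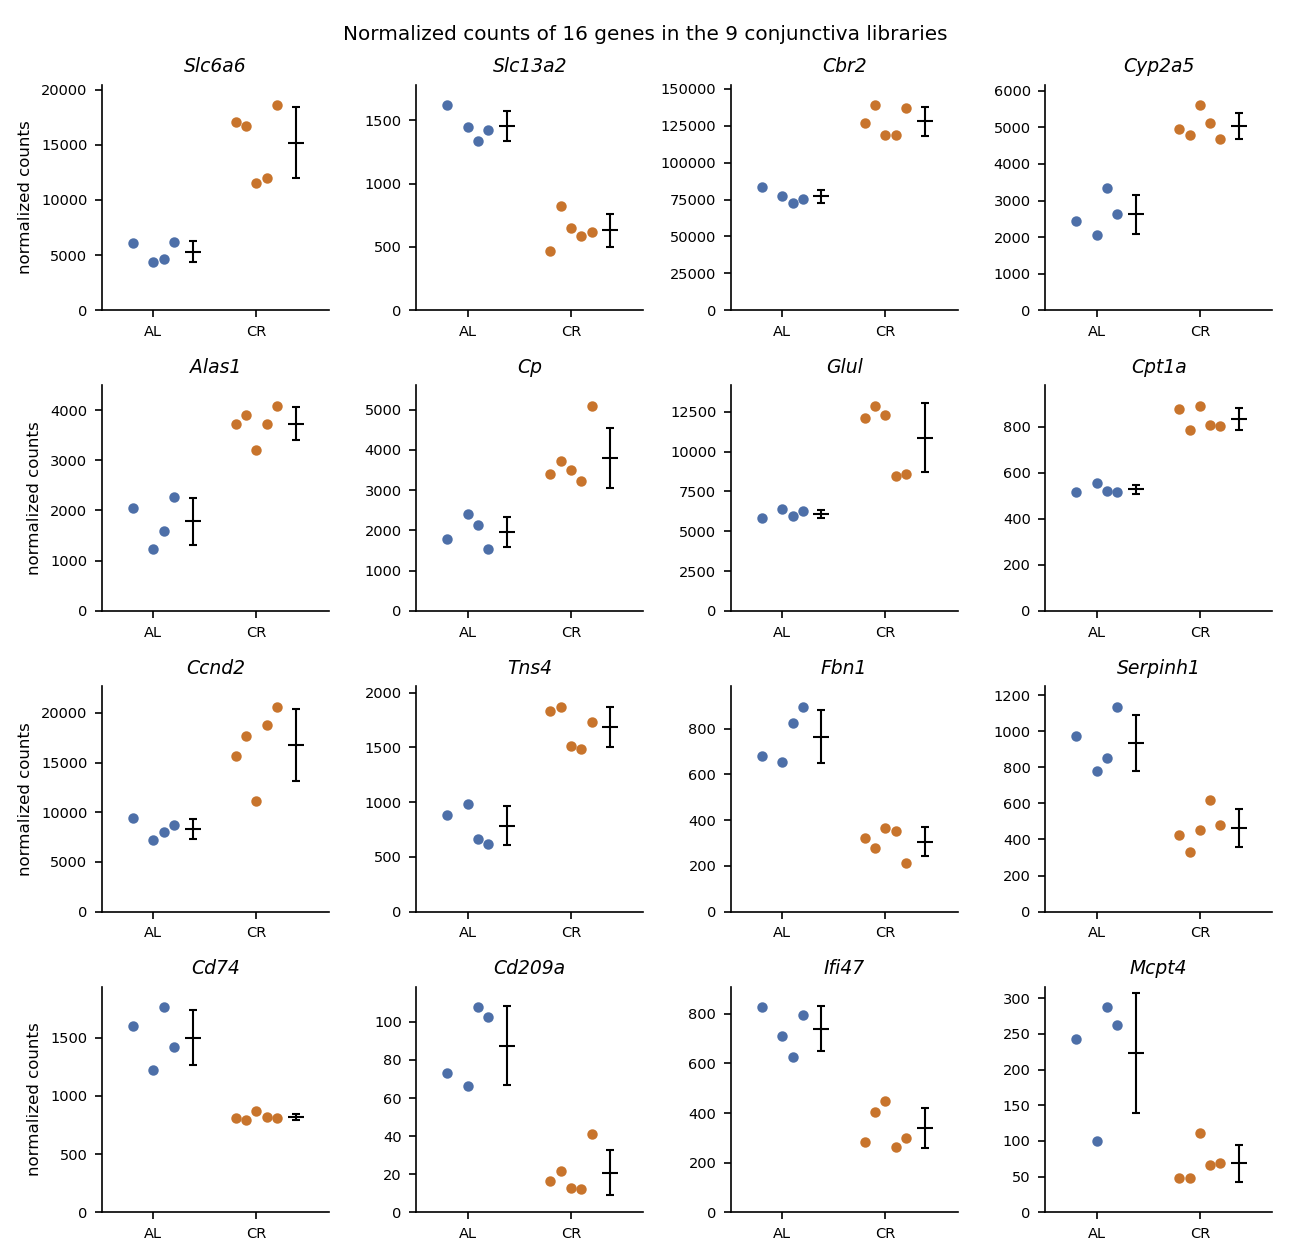
Normalized counts (y axes, from 0) of 16 genes in AL (blue) and CR (orange), with 1 point for each library placed from left to right by label number. The dash and bar beside each diet are the mean and SD. The diets do not overlap except for Mcpt4, where AL 3 lies below CR 3.

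Genes of fuel use came next. Cpt1a, the enzyme that admits long-chain fatty acids into mitochondria for oxidation, was at 516, 558, 523 and 517 normalized counts in AL 1, 3, 4 and 5. In CR 1 to 5 it was at 878, 784, 891, 808 and 803. The AL libraries were nearly equal and every CR library was above them. The log2 change was 0.65 ± 0.13 (limma adjusted p = 0.0343), and the call held only without CR 3 or CR 5. Glul, glutamine synthetase, lay between 5813 and 6379 in AL and between 8484 and 12884 in CR, with CR 4 and CR 5 the lowest of the CR libraries. It rose by 0.81 ± 0.16 (adjusted p = 0.033), was lost without any of the 4 AL libraries, CR 1 or CR 2, and reached 0.00883 without CR 5.

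Cpt1a was the only called gene of 29 tested in the list of PPAR-alpha and fatty acid oxidation, in limma as in voom. Of the 29, 27 were higher and 2 lower under CR, 7 were higher and 0 lower at an unadjusted p under 0.05 (4.53% and 4.87% of all genes tested), and the median log2 change was 0.46. The median was 0.36 without CR 5 and 0.29 without AL 3. The score of this list was lowest in AL 3 (-0.69) and highest in CR 3 (0.64), as was that of skeletal muscle (-1.94 and 1.63), which was higher in 21 of 21 genes with a median of 0.55. The part of muscle in this result was not tested. Slc25a20, the carnitine carrier of mitochondria, had a log2 change of 0.51 (adjusted p = 0.407). Ppargc1a, a coactivator of oxidative genes, had one of 0.57 (adjusted p = 0.42). Acot1, an acyl-CoA thioesterase, was at 328 in CR 5 and at 64.7 to 79.2 in the other CR libraries, so its change of 1.07 leaned on CR 5.

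Glul also stood among the targets of the glucocorticoid receptor, of which 22 were tested. Of these 19 were higher and 3 lower, 10 were higher and 0 lower at an unadjusted p under 0.05, and the median log2 change was 0.57, between 0.46 without AL 3 and 0.70 without CR 5. Fkbp5, a chaperone that limits the receptor's activity, was at 281, 348, 331 and 310 normalized counts in AL 1, 3, 4 and 5 and at 637, 694, 659, 473 and 417 in CR 1 to 5. The diets did not overlap, yet Fkbp5 missed the threshold with a log2 change of 0.83 (adjusted p = 0.0594) and passed it without CR 5 (adjusted p = 0.0122). Klf9, a hormone-responsive repressor, had a change of 0.65 (adjusted p = 0.211), with AL 5 above CR 1. Per1, which is both a clock gene and a target of the receptor, lay at 121 to 349 in AL and at 441 to 838 in CR (log2 change 1.55, adjusted p = 0.117).

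Genes that build lipids included none that passed in limma or voom. Of 30 tested genes of fatty acid and lipid synthesis, 26 were higher and 4 lower, 2 higher and 1 lower at an unadjusted p under 0.05, and the median log2 change of 0.37 was 0.27 without CR 5. Scd1, the stearoyl-CoA desaturase, was at 12184 in CR 5 and at 533 to 810 in the other CR libraries. Dgat2, which makes triglycerides, had a log2 change of 0.87 (adjusted p = 0.0937) and was at 1611 in CR 5. In 24 genes of sterol synthesis the median was 0.22, and 0.05 without CR 5. The 17 tested meibomian genes had a median of 1.28, which was 0.09 without CR 5. The 12 tested fat cell genes had a median of 0.70, and 0.12 without AL 3. The part of lid gland and fat tissue in the lipid results was not tested.

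Among regulators of growth and translation, Ccnd2, Tns4, Prr5l and Eef2k rose. Ccnd2, a D-type cyclin that carries growth signals to the cell cycle, was at 9421, 7164, 7986 and 8728 normalized counts in AL 1, 3, 4 and 5. In CR 1 to 5 it was at 15693, 17678, 11188, 18740 and 20650. CR 3 was the lowest of the CR libraries but still above every AL library, and Ccnd2 rose by 0.99 ± 0.17 (limma adjusted p = 0.0149). Omitting any of AL 3, AL 4, AL 5, CR 1, CR 2 and CR 4 ended the call. Ccnd1, the related cyclin, had a log2 change of 0.66 without overlap (adjusted p = 0.112).

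Tns4, a tensin that links integrins to the cytoskeleton in epithelial cells, rose by 1.12 ± 0.16 (limma adjusted p = 0.00337), from 617 to 986 normalized counts in AL to 1482 to 1873 in CR, and held in all 9 fits. Prr5l, a binding partner of mTOR complex 2, lay at 160 to 272 in AL and at 353 to 516 in CR (log2 change 1.03, adjusted p = 0.0247), and held only without AL 3, CR 3, CR 4 or CR 5. Eef2k, the kinase that slows translation elongation, lay at 458 to 619 and at 875 to 992 (log2 change 0.75, adjusted p = 0.0245) and held only without AL 5, CR 3 or CR 5. Deptor, an inhibitor of mTOR, had a log2 change of 0.63 without overlap (adjusted p = 0.117). Over 24 tested genes of mTOR and translation control the median was 0.05, with 13 higher and 11 lower. Over 29 of insulin, IGF and FOXO signalling it was 0.09, with 17 higher and 12 lower. Igf1r, the IGF-1 receptor, had a change of 0.55 (adjusted p = 0.243). None of these 29, of 32 proliferation genes (median -0.11), or of 44 genes of autophagy and lysosomes (median 0.03, with 0 at an unadjusted p under 0.05) passed in limma or voom. For the insulin list 4 were higher and 2 lower at an unadjusted p under 0.05, and for proliferation 1 each way.

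The clock supplied the largest single set of calls. Of 13 tested genes driven through E-box and D-box elements, 13 were higher and 10 passed. Bhlhe41, a repressor of CLOCK and BMAL1, was at 105, 71.8, 161 and 105 normalized counts in AL 1, 3, 4 and 5 and at 593, 584, 885, 656 and 492 in CR 1 to 5, with a log2 change of 2.55 ± 0.23 (limma adjusted p = 6.58e-05). Dbp, an output factor that binds the D-box, lay at 193 to 509 in AL and at 1929 to 2979 in CR. The other 8 were Per2, Per3, Tef, Cry2, Nr1d2, Hlf, Ciart and Nr1d1. Hlf, Ciart and Nr1d1 were the clock calls that a single omitted library could end, Hlf without AL 3, AL 4, CR 1, CR 2 or CR 4, Ciart without AL 1, AL 4, AL 5, CR 1 or CR 2 and with voom (adjusted p = 0.166), and Nr1d1 without AL 4, CR 1, CR 2 or CR 4. Usp2, a clock-linked deubiquitinase that was in no list, lay at 505 to 856 in AL and at 1350 to 2763 in CR (log2 change 1.54, adjusted p = 0.00326). Genes that respond to the opposite arm, through ROR elements, had a median log2 change of -0.86 over 6, and none passed in limma. The list was mixed, with 2 higher and 4 lower at an unadjusted p under 0.05 and changes from -4.03 to 0.67. Arntl, which encodes BMAL1, was at 158, 144, 180 and 234 in AL 1, 3, 4 and 5 and at 34.1, 11.4, 17.4, 0 and 17.7 in CR 1 to 5 (adjusted p = 0.0937), and passed with voom (0.0251), with quantile normalization (0.04) and without CR 4. Npas2, a partner of BMAL1, had a log2 change of -1.16 (adjusted p = 0.0683), and Nfil3, which competes with Dbp at the D-box, one of -2.10 (adjusted p = 0.128).

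Promoter sequence is shown for the called genes whose windows hold a clock element, since 10 of the called genes belong to the clock. RefSeq promoter windows on GRCm38.p6, from 250 bases before to 50 after each start, were matched by symbol for 26 of the 31 raised and 13 of the 19 lowered genes. The E-box searched was CACGTG, which reads the same on both strands. It stood in a window of 6 of the 26 raised genes (5930430L01Rik, Ankrd12, Bhlhe41, Ciart, Eef2k and Tef) and of 1 of the 13 lowered genes (AW551984), against 11.4% of 10818 tested genes with a window and 7.15% of all windows. The D-box searched was TTATGTAA, TTACGTAA or TTACATAA, the first and the last being each other's reverse complement. It stood in windows of Per3 and Sec14l3 among the raised genes and of AW551984 among the lowered, against 0.897% of tested genes. The paired half-site of the glucocorticoid receptor, searched as ACANNNTGT, stood in windows of Aoc1 and Glul among the raised genes (7.69% of 26) and of Ifi47 among the lowered (7.69% of 13), against 5.24% of tested genes. AW551984, which fell, held both clock elements. A match is only a match of letters. The stretches before the start are printed 5′ to 3′ on the gene's strand with the element in capitals.
Ciart, E-boxes, chr3:95882229-95882384, minus strand: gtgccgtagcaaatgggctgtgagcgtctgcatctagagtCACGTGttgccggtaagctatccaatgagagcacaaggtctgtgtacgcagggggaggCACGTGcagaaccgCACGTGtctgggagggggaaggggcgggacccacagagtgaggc
Bhlhe41, E-box, chr6:145865528-145865613, minus strand: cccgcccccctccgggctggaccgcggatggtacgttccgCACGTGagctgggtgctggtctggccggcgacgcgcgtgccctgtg
Ankrd12, E-boxes, chr17:66077047-66077147, minus strand: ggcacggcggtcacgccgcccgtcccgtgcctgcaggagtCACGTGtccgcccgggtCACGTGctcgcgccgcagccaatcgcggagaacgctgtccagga
5930430L01Rik, E-boxes, chr5:148995215-148995281, minus strand: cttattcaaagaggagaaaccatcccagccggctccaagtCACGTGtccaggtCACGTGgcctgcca
Tef, E-box, chr15:81802506-81802591, plus strand: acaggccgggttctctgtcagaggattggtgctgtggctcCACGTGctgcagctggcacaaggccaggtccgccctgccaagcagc
Tef, E-box of another start, chr15:81811236-81811321, plus strand: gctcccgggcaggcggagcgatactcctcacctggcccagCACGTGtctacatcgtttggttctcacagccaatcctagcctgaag
AW551984, lowered, E-box, chr9:39604413-39604498, minus strand: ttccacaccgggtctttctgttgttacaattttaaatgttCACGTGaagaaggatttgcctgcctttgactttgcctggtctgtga
AW551984, lowered, D-box of another start, chr9:39603841-39603902, minus strand: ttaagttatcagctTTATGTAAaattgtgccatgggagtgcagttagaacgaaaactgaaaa
Eef2k, E-box, chr7:120842760-120842830, plus strand: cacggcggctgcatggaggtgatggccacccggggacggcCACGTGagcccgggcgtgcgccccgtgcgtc
Per3, D-boxes, chr4:151044776-151044910, minus strand: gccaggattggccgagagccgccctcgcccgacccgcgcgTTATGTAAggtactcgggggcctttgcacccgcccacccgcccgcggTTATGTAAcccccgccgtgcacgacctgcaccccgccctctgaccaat
Sec14l3, D-box, chr11:4064757-4064844, plus strand: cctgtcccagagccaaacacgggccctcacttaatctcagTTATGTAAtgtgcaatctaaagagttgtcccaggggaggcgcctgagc

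Several of the raised genes that hold these elements are not clock components. Ankrd12, an ankyrin-repeat cofactor of nuclear receptors, lay at 2217 to 2631 normalized counts in AL and at 3544 to 4642 in CR (log2 change 0.79 ± 0.14, limma adjusted p = 0.0136), and its call was lost without AL 1, AL 3 or CR 1. The RIKEN gene 5930430L01Rik, whose product is not characterised, lay at 109 to 277 in AL and at 448 to 877 in CR (log2 change 1.74 ± 0.26, adjusted p = 0.00653). Sec14l3, a member of the SEC14 family of lipid-binding proteins, was at 69.9, 55.0, 74.2 and 57.2 in AL 1, 3, 4 and 5 and at 138, 217, 339, 217 and 191 in CR 1 to 5. AL was narrow and CR wide, and the log2 change of Sec14l3 was 1.72 ± 0.26 (adjusted p = 0.00639). The calls of the last 2 genes held with any library left out.

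The remaining raised genes were Kctd14, Lgalsl, H60c and Gdap10. Kctd14, a protein with a BTB-type domain, lay at 320 to 389 normalized counts in AL and at 497 to 1079 in CR (log2 change 1.02, adjusted p = 0.0304), and held only without CR 3, CR 4 or CR 5. Lgalsl, a galectin-like protein, lay at 479 to 643 and at 688 to 1368 (log2 change 0.93, adjusted p = 0.0372), and held only without CR 3 or CR 5. H60c encodes a ligand of the NKG2D receptor of cytotoxic lymphocytes and is known from skin epithelium. It lay at 486 to 612 in AL and at 893 to 1700 in CR (log2 change 1.01, adjusted p = 0.0153), and was lost without AL 1, AL 4 or CR 2. Gdap10 lay at 147 to 250 and at 277 to 576 (log2 change 1.08, adjusted p = 0.0445), and was the 1 call lost without CR 5 (adjusted p = 0.0545). It was also lost without AL 1, AL 3, AL 5, CR 2 or CR 4 and with voom (adjusted p = 0.0573). Gdap10 overlaps Nampt, the limiting enzyme of NAD salvage, whose own log2 change was 0.53 (adjusted p = 0.181). In all, 25 of the 50 called genes overlap another annotated gene. The share over all genes tested was not computed, so it is not known whether this is unusual.

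The stromal matrix supplied 6 of the 19 genes that fell. Fbn1 encodes fibrillin-1, the scaffold of elastic microfibrils. It was at 679, 655, 824 and 897 normalized counts in AL 1, 3, 4 and 5 and at 321, 279, 367, 352 and 212 in CR 1 to 5. Every CR library was below every AL library, and Fbn1 fell by 1.33 ± 0.18 on the log2 scale (limma adjusted p = 0.00282) and held in all 9 fits. Serpinh1, the collagen chaperone HSP47, was at 974, 778, 850 and 1137 in AL and at 427, 331, 454, 619 and 480 in CR. It fell by 1.03 ± 0.18 (adjusted p = 0.0149) and missed the threshold on omission of AL 1, AL 5, CR 1 or CR 2. The 4 collagens that fell were Col1a1, Col3a1, Col5a2 and Col5a3, all of the fibril-forming kind. Col3a1, for instance, lay at 5224 to 8437 in AL and at 1660 to 3576 in CR (log2 change -1.57, adjusted p = 0.00337). These 4 calls held with any library left out.

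The wider lists of the matrix were mostly lower. Among 18 collagens tested, 16 were lower and 13 were lower at an unadjusted p under 0.05, with a median log2 change of -0.80. Of 22 collagen processing enzymes 21 were lower and 6 were lower at an unadjusted p under 0.05 (median -0.41). Loxl1 and Loxl2, which crosslink collagen and elastin, had log2 changes of -0.83 and -0.76 with adjusted p of 0.18 and 0.104. Elastic fiber genes and matrix glycoproteins were lower in 28 of 29, with 17 lower and 0 higher at an unadjusted p under 0.05 (median -0.65). Without CR 3, 4 of the 29 passed, Emilin2, Fbn1, Fn1 and Postn. Eln, elastin itself, was at 1253, 751, 1432 and 1429 in AL 1, 3, 4 and 5 and at 434, 484, 669, 400 and 164 in CR 1 to 5. The diets did not overlap for Eln, its log2 change was -1.59 (adjusted p = 0.162), and it passed without CR 5 (adjusted p = 0.0127). The small leucine-rich proteoglycans, which space collagen fibrils, had a median of -0.59 over 11, and 0 passed in limma and 1 in voom, with 4 lower at an unadjusted p under 0.05. Their median was -0.39 without CR 5 and -0.35 with a filter at a mean of 50. Prelp, one of them, came closest to the threshold of any gene that missed it (log2 change -1.11, adjusted p = 0.0529). The 15 basement membrane genes, by contrast, had a median of -0.14, and none passed in limma or voom (0 higher and 2 lower at an unadjusted p under 0.05).

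Fibroblast markers had lower values too. All 25 tested were lower, 2 passed (Col1a1 and Col3a1, which are also in the collagen list), 15 were lower at an unadjusted p under 0.05, and the median log2 change was -0.58. Their summed level was 86515 to 111032 normalized counts in AL and 50067 to 90446 in CR, lowest in CR 5 and, among AL libraries, in AL 3. Pdgfra, a receptor that defines fibroblasts, had a log2 change of -0.57 (adjusted p = 0.208), and Dpt, dermatopontin, one of -0.70 (adjusted p = 0.18). The fibroblast median was -0.48 without CR 5 and -0.75 without CR 3, and without CR 3 10 of the 25 passed. The part of a lower share of fibroblasts in the matrix results was not tested.

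The remaining proteases and vessel genes that fell were Plat and Thbd. Plat, tissue plasminogen activator, was at 449, 474, 422 and 466 normalized counts in AL 1, 3, 4 and 5 and at 247, 227, 303, 219 and 139 in CR 1 to 5. It fell by 1.04 ± 0.20 (limma adjusted p = 0.0343). Thbd, thrombomodulin, which restrains clotting on endothelium and is also made by epithelium, lay at 313 to 388 in AL and at 68.7 to 216 in CR (log2 change -1.39 ± 0.26, adjusted p = 0.0285). The diets did not overlap for either gene, CR 3 was the highest and CR 5 the lowest of the CR libraries, and both calls held only without CR 3 or CR 5. The 21 tested endothelial and lymphatic markers had a median log2 change of -0.28, which was 0.13 without CR 5, and none passed in limma or voom (0 higher and 2 lower at an unadjusted p under 0.05). In 23 tested metalloproteinases and inhibitors the median was -0.47, with 19 lower, 6 of them at an unadjusted p under 0.05. Mmp9, a gelatinase of the ocular surface, lay at 325 to 595 in AL and at 142 to 301 in CR (log2 change -1.12, adjusted p = 0.0767). Mmp9 passed without CR 3 (adjusted p = 0.026), without AL 3 (0.0431) and without AL 3 and CR 5 (0.0362).

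Antigen presentation gave 1 call with all 9 libraries, Cd74. Cd74, the invariant chain that guides MHC class II molecules, was at 1602, 1219, 1760 and 1419 normalized counts in AL 1, 3, 4 and 5. In CR 1 to 5 it was at 809, 793, 868, 820 and 807, a narrow band. Cd74 fell by 0.86 ± 0.14 (limma adjusted p = 0.00742) and held in all 9 fits. The 7 tested class II genes were lower in 7 of 7 cases, 4 of them at an unadjusted p under 0.05, with a median log2 change of -0.69 that was -0.67 without CR 5. H2-Eb1 was at 3347, 1910, 2541 and 2610 in AL and at 1356, 1483, 1537, 1895 and 1298 in CR (log2 change -0.77, adjusted p = 0.0659). H2-Ab1 and H2-Aa had changes of -0.69 and -0.65 with adjusted p of 0.106 and 0.187. Without AL 3 and CR 5, H2-Eb1 (adjusted p = 0.0183) and H2-Aa (0.0265) passed and H2-Ab1 (0.146) did not. H2-Eb1 also passed without CR 3 (adjusted p = 0.0428) or without AL 3 (0.0262). The 13 class I presentation genes had a median of -0.23, 0 at an unadjusted p under 0.05, and none that passed in limma or voom.

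Cd209a and Mgl2 encode C-type lectins of dendritic cells and macrophages in skin and mucosa. Cd209a was at 73.2, 66.2, 108 and 103 normalized counts in AL 1, 3, 4 and 5 and at 16.6, 21.9, 12.6, 12.3 and 41.0 in CR 1 to 5. It fell by 2.13 ± 0.43 (limma adjusted p = 0.0404), held only without CR 3 or CR 5, and missed the threshold with voom (adjusted p = 0.0552). Mgl2 was at 344, 402, 497 and 315 in AL and at 74.0, 101, 210, 172 and 104 in CR. It fell by 1.63 ± 0.28 (adjusted p = 0.0129) and was lost without AL 4 or CR 2. For both genes no CR library reached the lowest AL library. In the list of dendritic and Langerhans cells 9 of 11 tested genes were lower (median -0.74, between -1.15 without AL 5 and -0.44 without CR 2). This median was -0.36 with a pseudocount of 10 and 0.0 with a filter at a mean of 50, so it rested on genes of low level. Summed over the 16 listed genes, the diets overlapped, at 1926 to 2368 normalized counts in AL and 1763 to 2644 in CR. Batf3, a factor of cross-presenting dendritic cells, lay at 23.3 to 59.2 in AL and at 0 to 13.6 in CR (adjusted p = 0.243), with a median for the list of -1.03 without CR 5.

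Macrophage markers were lower in 23 of 26, of which 10 were lower and 0 higher at an unadjusted p under 0.05, but none passed in limma or voom. Their median log2 change was -0.46, and -0.40 without CR 5, and the summed level was 7393 to 9181 in AL and 5404 to 7394 in CR. C1qa, a complement subunit made by tissue macrophages, was at 1086, 893, 1154 and 968 in AL 1, 3, 4 and 5 and at 634, 544, 763, 800 and 584 in CR 1 to 5 (log2 change -0.63, adjusted p = 0.103). Without CR 3, C1qa and Lyz2 of this list passed, with adjusted p of 0.0499 and 0.0368. Adgre1, which encodes F4/80, lay at 83.0 to 181 and at 30.9 to 92.2 (adjusted p = 0.155), so that the diets overlapped. Adgre1 passed without AL 3 and CR 5 (adjusted p = 0.0487).

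Mcpt4, a chymase of connective tissue mast cells, was at 243, 99.9, 287 and 263 normalized counts in AL 1, 3, 4 and 5 and at 47.7, 48.5, 111, 66.6 and 68.7 in CR 1 to 5. AL 3 lay below CR 3, which makes Mcpt4 the 1 called gene whose diets overlapped. It fell by 1.65 ± 0.34 (limma adjusted p = 0.0445), and did not pass when any of AL 1, AL 4, AL 5, CR 1, CR 2 and CR 4 was omitted or with voom (adjusted p = 0.0619). The adjusted p of Mcpt4 reached 0.00589 without AL 3 and 0.00328 without AL 3 and CR 5. Cpa3, a carboxypeptidase of the same cells, had a log2 change of -1.40 (adjusted p = 0.0838). Cpa3 passed without AL 3 (adjusted p = 0.00929) and without AL 3 and CR 5 (0.00743), but not without CR 5 alone (0.15). Cma1, a further chymase, was at 5.54 in CR 5 and at 75.0 to 183 in the other CR libraries (log2 change -1.94, adjusted p = 0.577).

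Interferon, complement and chemokine genes gave 1 call with all 9 libraries. Ifi47, a GTPase induced by interferon gamma, was at 826, 709, 625 and 795 normalized counts in AL 1, 3, 4 and 5 and at 283, 404, 447, 264 and 300 in CR 1 to 5, with no overlap. It fell by 1.14 ± 0.18 (limma adjusted p = 0.00691) and held in all 9 fits. Of 30 interferon-stimulated genes 23 were lower, 7 at an unadjusted p under 0.05, with a median log2 change of -0.30, or -0.19 without CR 2. Bst2, which tethers budding virus particles to the cell, had a change of -0.87 (adjusted p = 0.208) and passed without CR 3 (adjusted p = 0.0268). Complement had a median of -0.64 over 15, with 13 lower and 8 lower at an unadjusted p under 0.05. None passed in limma or voom with all 9 libraries. C3, the central component, lay at 1387 to 1914 in AL and at 626 to 1259 in CR (log2 change -0.84, adjusted p = 0.0714). Without CR 3, the complement genes C3, C1s1 and Cfb passed, with adjusted p of 0.0149, 0.0217 and 0.0471. Over 20 chemokines the median was -0.62, with 16 lower, 7 at an unadjusted p under 0.05 and none past the threshold in limma or voom. Cxcl5, which attracts neutrophils, was at 659 in AL 3 and 143 to 213 in the other AL libraries, and at 162 in CR 5 and 32.4 to 49.7 in the other CR libraries. Cxcl5 had a log2 change of -2.13 (adjusted p = 0.138) and passed without CR 5 (adjusted p = 0.00883) and without both libraries (adjusted p = 0.00353). Few lymphocyte genes were measurable, with 7 of 24 T and NK cell genes tested and a median of -0.46, which was -0.09 without CR 1 and -0.20 without AL 3.

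Of 13 mucosal antimicrobial genes 9 were higher and 4 lower, 2 each way at an unadjusted p under 0.05, and none passed in limma or voom. Their median log2 change was 0.25, which was 0.01 without CR 5. Lyz2, lysozyme, had a change of -1.0 (adjusted p = 0.247). Ltf, lactoferrin, lay at 283 to 393 normalized counts in AL and at 373 to 1018 in CR (log2 change 1.2, adjusted p = 0.0681). CR 4 was the lowest of the CR libraries for Ltf, which passed without it (adjusted p = 0.00216). Lcn2, a siderophore-binding lipocalin, was at 497 in AL 3 and 116 to 180 in the other AL libraries, and at 469 to 836 in CR (log2 change 1.61, adjusted p = 0.118). Its adjusted p was 0.000283 without AL 3, 0.204 without CR 5 and 9.77e-05 without both. Il1r1, the receptor of interleukin-1, had a change of -0.77 (adjusted p = 0.168), which passed without CR 5 (adjusted p = 0.0421).

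The other lowered genes were Tppp3, Dapk1, Cdc42ep2, Dhrs3 and AW551984. Tppp3, a tubulin-binding protein of ciliated and other cells, lay at 2250 to 3520 normalized counts in AL and at 1094 to 1771 in CR (log2 change -1.03 ± 0.18, limma adjusted p = 0.0129), and was lost without AL 1, AL 5 or CR 1. The 10 tested genes of ciliated airway epithelium were 5 higher and 5 lower (median 0.06). Dapk1, a death-associated kinase, lay at 1228 to 1512 and at 638 to 1027 (log2 change -0.77, adjusted p = 0.0335), and its call ended when any of AL 1, AL 4, AL 5, CR 1 and CR 2 was omitted. Cdc42ep2, an effector of the GTPase CDC42, lay at 289 to 451 and at 148 to 198 (log2 change -0.98, adjusted p = 0.0343). Dhrs3, which returns retinal to retinol, lay at 1298 to 1527 and at 917 to 1020 (log2 change -0.60, adjusted p = 0.0482). AW551984 lay at 199 to 237 and at 80.9 to 151 (log2 change -1.19, adjusted p = 0.0335). The calls of Cdc42ep2, Dhrs3 and AW551984 held only without CR 3 or CR 5. Of 22 retinoid metabolism genes 12 were higher and 10 lower, with a median of 0.16.

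The epithelium itself showed no called marker. In 15 mucosal keratins 10 were higher and 5 lower (median log2 change 0.08), and none passed in limma or voom, with 2 higher and 1 lower at an unadjusted p under 0.05. Krt23 and Krt18 had changes of 0.77 and 0.67 (adjusted p = 0.161 and 0.191). Krt12, the keratin of corneal epithelium, was present at 436 to 5139 normalized counts and overlapped between the diets (log2 change -0.78, adjusted p = 0.812).

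Goblet cell and mucin genes had a median of 0.08 over 19, 10 higher and 9 lower, and none passed in limma or voom (3 higher and 2 lower at an unadjusted p under 0.05). Muc5ac was at 5530, 3221, 4241 and 5067 in AL 1, 3, 4 and 5 and at 5109, 3620, 2683, 2328 and 6593 in CR 1 to 5, so that the diets overlapped throughout (log2 change -0.23 ± 0.30, adjusted p = 0.861). Muc5b, the other gel-forming mucin, lay at 254 to 414 in AL and at 425 to 1269 in CR (log2 change 0.93, adjusted p = 0.244). Tff1, a trefoil peptide that is secreted with mucins, was at 364 to 556 in AL and at 1666, 1308, 721, 428 and 1740 in CR 1 to 5 (log2 change 1.21, adjusted p = 0.384). Without CR 4, Tff1 passed (adjusted p = 0.0265). Aqp5, a water channel, had a change of 0.60 without overlap (adjusted p = 0.09).

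Barrier genes were likewise below the threshold. Cldn1, a claudin that seals the paracellular space, was at 230, 276, 258 and 296 in AL 1, 3, 4 and 5 and at 734, 498, 385, 432 and 438 in CR 1 to 5. Its log2 change of 0.87 gave an adjusted p of 0.0659, and of 0.048 without CR 5. Over 18 tight junction genes the median was 0.05, with 4 higher and 0 lower at an unadjusted p under 0.05 and none that passed in limma or voom. Casp14, a protease of cornifying epithelium, lay at 22.4 to 47.4 and at 49.2 to 135 (log2 change 1.33, adjusted p = 0.15). Its list, the cornified envelope, had a median of 0.37 over 18, which was 0.18 without CR 5, 0.17 without AL 3, 0.14 without CR 2 and 0.85 without CR 1. Epithelial transcription factors were higher in 15 of 18 (median 0.16), with none past the threshold in limma or voom and 3 higher at an unadjusted p under 0.05. Klf5, one of them, was at 9416 in CR 3 and at 15447 to 23476 in the other CR libraries (log2 change 0.52, adjusted p = 0.464).

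**Figure D5:**
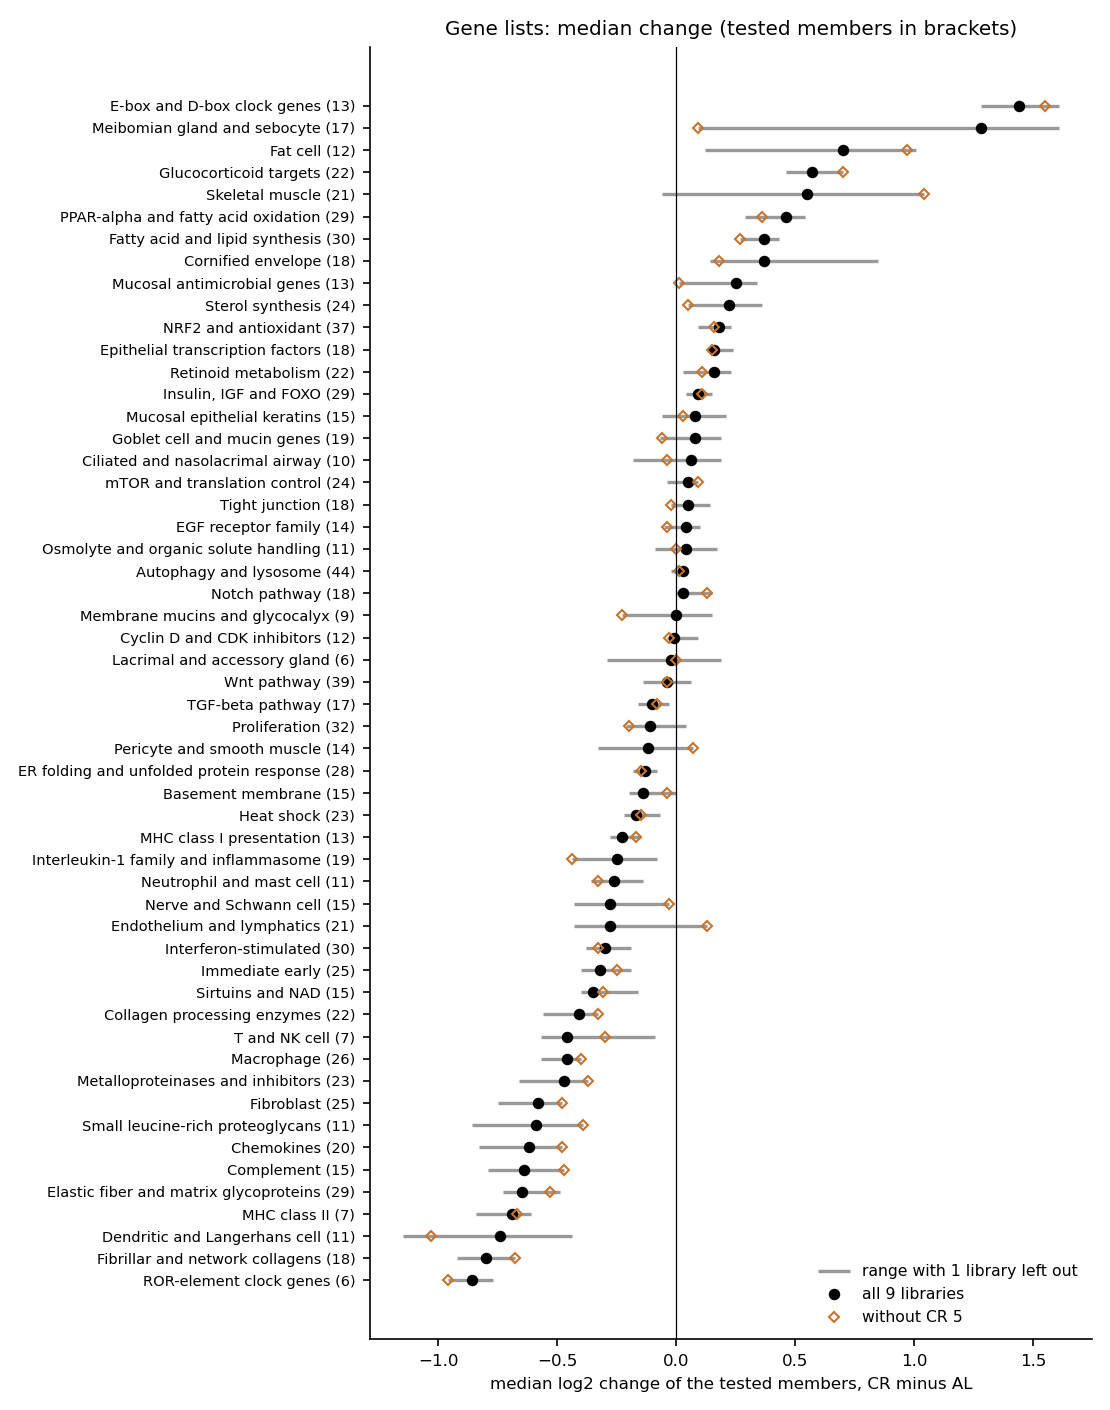
Median log2 change, CR minus AL (x axis), over the tested members of each list with at least 5 of them (rows, tested members in brackets). Black points use all 9 libraries, grey lines span the medians with 1 library left out, and open diamonds are without CR 5. The collagen, elastic fiber, fibroblast, class II and chemokine lists stay below 0 throughout, as does the ROR-element clock list. The E-box and D-box clock, glucocorticoid and fatty acid oxidation lists stay above 0. The meibomian, muscle, fat cell and endothelial lists move widely without CR 5 or AL 3.

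Just outside the threshold, the 10 genes with the smallest p had adjusted p between 0.0529 and 0.0659. Of these Fkbp5, Cldn1, Sec22c, Avpi1 and Tmem57 were higher and Prelp, Spon2, Tgm2, Pdzrn4 and Cbln1 lower. Spon2, a secreted matrix protein, had a log2 change of -1.34, and Tgm2, the tissue transglutaminase that crosslinks matrix proteins, one of -0.76. Sec22c, of the secretory pathway, had one of 0.81. In all 10 the diets did not overlap, which their choice by small p favors.

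Signals and stress programs gave no call in limma or voom. Over 39 tested Wnt pathway genes the median log2 change was -0.04, with 2 higher and 4 lower at an unadjusted p under 0.05. Wnt2 and Dkk2, which are made in stroma, had changes of -1.27 and -0.77 without overlap (adjusted p = 0.0766 and 0.0889), and Wnt7b, made in epithelium, one of 0.63 without overlap (adjusted p = 0.135). Dkk2 passed without CR 4 (adjusted p = 0.0309). Heat shock genes had a median of -0.17 over 23, with 0 higher and 1 lower at an unadjusted p under 0.05. Immediate early genes had a median of -0.32 over 25, with 1 higher and 3 lower. Cirbp, a cold-inducible RNA-binding protein, was at 698 to 939 in AL and at 2610, 1489, 1413, 1338 and 859 in CR 1 to 5 (log2 change 0.86, adjusted p = 0.233), and passed without CR 5 (adjusted p = 0.0243).

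Tissue that adjoins the conjunctiva varied between libraries without a call. The 21 skeletal muscle genes were higher in 21 of 21 with a median log2 change of 0.55, none at an unadjusted p under 0.05 and none that passed in limma or voom. Their median was -0.06 without AL 3 and 1.04 without CR 5. Myh4, a fast muscle myosin, was at 1732 in AL 3 and 2688 in CR 5, and at 6886 to 25774 in the other 7 libraries. Obp1a, an odorant-binding protein of glands, was at 17.7, 30.3, 42 and 33.6 in AL 1, 3, 4 and 5, at 0.97 in CR 1 and at 0 in the other CR libraries (adjusted p = 0.0767). Of the 21 listed lacrimal gland genes, 5 were at 0 in every library.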

How the data were processed

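RNA of whole excised conjunctiva was sequenced from 4 AL and 5 CR libraries, grouped by their labels. The methods name cutadapt, STAR on mm10, HTSeq and DESeq2 size factors, whereas the submitters' processing notes list GRCm39. The labels name a stranded mRNA kit and the methods an oligo(dT) kit, and the strand setting of counting is not given in the sources used here. The authors deposited log2 values, the log2 of each gene's size-factor-normalized count plus 1. They were returned to normalized counts, and 100% of values gave whole reads within a tolerance of 0.05. Of 24557 features, 10 with a repeated symbol were left out.

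Log2(normalized count + 1) was tested with limma 3.58.1 in R 4.3.3 (trend and robust moderation with statmod 1.5.0), in the 13928 genes whose mean reached 10 normalized counts. Fold changes on this scale understate the change of low genes. Calls needed an adjusted p (Benjamini-Hochberg) below 0.05 and a fold above 1.5, and the model was tested on simulated data. All adjusted p-values are from this test over all genes unless voom or another setting is named. The study counts these libraries as mice, whereas the labels name no animal, and p-values measure the spread between these libraries. Every called gene is named. In the lists, genes that passed, or otherwise up to 4 with the smallest p, were to be named, and so were the 10 genes just outside the threshold. Others, such as Muc5ac, Krt12, Csad, Myh4 and the genes given for CR 5 and AL 3, were chosen after their values were seen. The members and all 58 lists were chosen with earlier results of these data known, so the lists are given as counts and medians without a test. Alternatives covered the pseudocount, the filter, the scaling, array weights, voom on recovered reads, a replicate block, moderation and each library left out. Leaving out AL 3 and CR 5 together, and fitting each library's percentage of undetected genes, were chosen after seeing the data. Overlaps with other genes and promoter windows are from GRCm38.p6.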

Additional observations from a re-analysis of the deposited data

Results flagged for a closer look

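In 28 of the 436 groups examined (6.42%), 1 library lay far from the others of its diet, where chance gives about 1 in 20. AL 3 accounted for 12 of these, CR 5 for 7, CR 3 for 5, CR 1 for 2 and CR 4 for 2.

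AL 3 had scores of 0.15 for elastic fibers and matrix glycoproteins, -0.56 for small leucine-rich proteoglycans and 0.04 for fibroblasts, each below the other AL libraries. It was also low for Mcpt4 (99.9 normalized counts), Cnfn (1.12) and Dpt (1792). It was high for Aoc1 (5.61), Cpt1a (558), Sprr2a3 (512.8), Ltf (393), Hyou1, an endoplasmic reticulum chaperone (409.6), and Areg, an epidermal growth factor receptor ligand (471).

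CR 5 was low for Cma1 (5.54 normalized counts), Slc25a20 (245) and Axin2, a Wnt target (153). It was high for Cxcl5 (162), Acot1 (328), Gclc (2626) and Scd1 (12184).

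CR 3 had scores of -0.24 for epithelial transcription factors, 0.16 for MHC class I presentation and 0.31 for interferon-stimulated genes. It was low for Hlf (4495 normalized counts) and high for Lum, a proteoglycan of collagen fibrils (1195). CR 4 had a score of -0.84 for lacrimal and accessory gland and was low for Per3 (623 normalized counts). CR 1 was low for Adipoq, the fat cell hormone adiponectin (15.6 normalized counts), and was the 1 CR library with a read of Obp1a (0.97).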

How the results depend on the processing

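The number of genes called, 50 with all libraries, ranged from 26 to 127 with 1 library left out. It was 50 with a pseudocount of 0.5, 54 with one of 10, 44 without a filter, 48 with a filter at a mean of 50, 56 with quantile normalization, 46 with total count scaling and 48 with voom. It was 149 with array weights, 4 without trend and robust moderation (of which 2 were among the 50), 102 at an adjusted p under 0.10, 58 without AL 3 and CR 5, and 62 when each library's percentage of undetected genes was fitted as well. In the last of these fits 6 of the 50 were lost. They were Nr1d1, Gdap10, Mcpt4, AW551984, Plat and Kctd14, with adjusted p from 0.0592 (Kctd14) to 0.182 (Nr1d1). With the replicate number as a block, 10 genes were called, all among the 50. The deviations of same-numbered libraries correlated at -0.062 to 0.053, and those of differently numbered libraries at -0.281 to 0.373. The labels do not say whether same-numbered libraries shared a cage, batch or day, and these correlations cannot decide it. Total count scaling moved the median of all genes by -0.089 on the log2 scale.

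No named gene reversed its direction past the threshold under any of these settings. Among list medians, total count scaling gave -0.10 for cyclin D and CDK inhibitors and -0.06 for autophagy, and quantile normalization -0.04 for autophagy. A filter at a mean of 50 gave 0.0 for dendritic cells and 0.34 for osmolyte handling, and array weights gave -1.19 for dendritic cells. Without AL 3 and CR 5 the median was -0.95 for B and plasma cells and 0.19 for the Notch pathway. With 1 library left out it ranged from -0.04 to 0.09 for cyclin D and CDK inhibitors and from -0.40 to -0.16 for sirtuins. The cause of these shifts was not tested. With 4 and 5 libraries, and some genes near 0, small differences were not detectable.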

Other observations

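Several lists were not described above. Sirtuins and NAD had a median log2 change of -0.35 over 15, or -0.16 without CR 4, with 5 higher and 10 lower. The TGF-beta pathway had -0.10 over 17, the EGF receptor family 0.04 over 14, the Notch pathway 0.03 over 18 and the interleukin-1 family -0.25 over 19, which was -0.44 without CR 5 and -0.08 without CR 4. Genes of protein folding in the endoplasmic reticulum had -0.13 over 28, with 1 higher and 4 lower at an unadjusted p under 0.05. Membrane mucins had 0.0 over 9, or -0.23 without CR 5. None of the members of these lists passed in limma or voom.

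Of 9 blood genes 4 were tested, 3 higher and 1 lower, with a median log2 change of 1.36. At an unadjusted p under 0.05, 2 were higher and 1 lower, and none passed. The 4 listed hemoglobin genes, Hbb-bs, Hbb-bt, Hba-a1 and Hba-a2, were at 0 in every library, so the median does not include them. Pericyte and smooth muscle genes had a median of -0.12 over 14, melanocyte genes -0.26 over 4, nerve and Schwann cell genes -0.28 over 15, and B and plasma cell genes -0.33 over 3. Without CR 5 these 4 medians were 0.07, 0.01, -0.03 and -0.74. Neutrophil and mast cell genes had -0.26 over 11, or -0.14 without CR 3 and 0.0 without AL 3 and CR 5, of which Mcpt4 passed, and cyclin D with CDK inhibitors -0.01 over 12, of which Ccnd2 passed. The 6 tested lacrimal gland genes had a median of -0.02, and the 2 cold-inducible RNA-binding genes 0.43.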
